A study of Mus musculus with 2 samples.

Results

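The genes described here encode the catalytic and scaffold subunits of the BAF complex (also called mammalian SWI/SNF). The 10 genes are Arid1a, Arid1b, Arid2, Smarca4, Smarca2, Smarcb1, Smarcc1, Smarcc2, Smarcd1 and Smarcd2, out of 20953 protein-coding genes examined. They were chosen as subunits of this complex, with earlier results of these data known, and each was looked up among the genes listed for every peak of a Sox4 pull-down. The data come from C57BL/6 mouse progenitor B cells derived from embryonic fetal liver. Retroviruses had delivered to them, in turn, BirA (a biotin ligase), the oncogene p190 Bcr-Abl, SE-Cre and Sox4 fused to a BAP tag, and cells were sorted after each of these. Sox4 is an HMG-box factor of the SOX family on which early B cells depend. There is 1 library of streptavidin pull-down DNA (Sox4 bioChIP) and 1 of input chromatin from the same transduced cells, so the values have no replicate check and no test between conditions was possible. The design asks where tagged Sox4 lay on the genome, and the question put to it here is whether and how strongly it lay at genes of this remodeller.

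The pull-down list holds 8730 peaks in the mm9 build. Each peak has the authors' tag number (reads in the peak), fold (tags over the background the peak caller expected) and score (taken to be the p-value of the peak as minus 10 log10). All 3 describe 1 pull-down library and serve only to order the peaks of this list. The sources used here do not state the total depth of the library, and the intervals on tags cover counting error only. No pull-down without tagged Sox4 and no RNA measurement was analysed here, so a peak does not by itself show bound Sox4, and whether these genes were expressed is not known from these data. Of the progenitor B markers Cd79a, Cd79b, Pax5, Ebf1, Vpreb1 and Igll1, 4 of 6 had a peak within 5 kb of their start, as did 0 of 2 T-cell markers (Cd3e, Cd3g), 0 of 2 hepatocyte markers (Alb, Afp) and 32.8% of all protein-coding genes. Cd3d, a T-cell gene outside that list, had a weak one with 36 tags, fold 3.95 and score 54.3. The Cd79a peak also lay within 5 kb of a start of Arhgef1.

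BAF complexes use the energy of ATP to slide or evict nucleosomes and so open promoters and enhancers to transcription factors. Each complex holds 1 of 2 alternative ATPases, encoded by Smarca4 (Brg1) and Smarca2 (Brm). In canonical BAF and the related PBAF these sit on a core built from the SMARCC, SMARCD and SMARCB1 proteins. There a large ARID subunit sets the type of complex: ARID1A or ARID1B in canonical BAF, ARID2 in PBAF. In lymphocyte development, BRG1-containing complexes are required for early B- and T-cell stages, and several of the genes, ARID1A and SMARCB1 among them, are recurrently lost in human tumours.

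Every one of the 10 genes had a peak over an annotated transcript start (TSS), and at most of them it was among the stronger promoter peaks of the list. A peak interval covered a TSS at 10 of 10 of the genes, against 28.4% of all protein-coding genes. A promoter peak, meaning an interval within 5 kb of a TSS, was present at 10 of 10, against 32.8% of all protein-coding genes, and 12 such peaks were counted because Arid1a and Arid2 had 2 each. None of the 12 intervals covered, or came within 1 kb of, the start of another gene. All 12 had the BAF gene as their closest gene. Any listed peak, inside the gene or up to 25 kb away, was likewise found for 10 of 10, against 48.9% of all protein-coding genes.

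To show the DNA before annotated starts of these genes, 250 bases upstream of a start are printed for 5 of the genes. The bases come from the RefSeq promoter table (build GRCm38.p6, not the mm9 build of the peaks, so they are matched by gene and not by position). The table held 10 such windows for 9 of the genes and none for Arid2. Smarcc1 (chr9:110131774-110132023, plus strand), Smarcd1 (chr15:99702037-99702286, plus strand) and Arid1a stand for strongly marked starts, Smarcb1 (chr10:75921615-75921864, minus strand) for the weakest, and Smarca2 (chr19:26604910-26605159, plus strand) for the outer start of a gene whose peak lay at an inner one. Arid1a has 2 windows, whose starts lie 2784 bp apart: an outer one (chr4:133756770-133757019, minus strand) and an inner one (chr4:133753986-133754235, minus strand). Sequences run 5′ to 3′ along the gene, and capitals mark GGGCGG or its reverse complement CCGCCC, the GC box bound by SP and KLF factors.
Smarcc1: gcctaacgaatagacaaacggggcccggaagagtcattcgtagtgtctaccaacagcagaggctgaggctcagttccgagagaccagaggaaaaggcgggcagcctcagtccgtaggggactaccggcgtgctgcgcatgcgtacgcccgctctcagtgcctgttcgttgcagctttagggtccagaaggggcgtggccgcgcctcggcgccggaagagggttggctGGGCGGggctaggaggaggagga
Smarcd1: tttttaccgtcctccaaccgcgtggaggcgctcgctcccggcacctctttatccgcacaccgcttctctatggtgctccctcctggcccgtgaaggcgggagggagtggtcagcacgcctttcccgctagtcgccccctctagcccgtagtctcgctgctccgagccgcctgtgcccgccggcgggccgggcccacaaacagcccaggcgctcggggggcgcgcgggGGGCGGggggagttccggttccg
Arid1a outer start: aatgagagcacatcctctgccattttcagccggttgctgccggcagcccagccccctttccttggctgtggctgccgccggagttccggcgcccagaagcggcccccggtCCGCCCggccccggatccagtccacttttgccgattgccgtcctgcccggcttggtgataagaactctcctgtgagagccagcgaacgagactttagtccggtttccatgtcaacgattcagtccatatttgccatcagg
Arid1a inner start: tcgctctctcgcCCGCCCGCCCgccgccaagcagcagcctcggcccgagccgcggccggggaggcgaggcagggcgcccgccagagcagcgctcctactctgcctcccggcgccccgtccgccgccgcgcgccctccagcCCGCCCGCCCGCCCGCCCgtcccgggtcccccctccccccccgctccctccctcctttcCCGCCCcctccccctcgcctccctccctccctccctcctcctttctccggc
Smarcb1: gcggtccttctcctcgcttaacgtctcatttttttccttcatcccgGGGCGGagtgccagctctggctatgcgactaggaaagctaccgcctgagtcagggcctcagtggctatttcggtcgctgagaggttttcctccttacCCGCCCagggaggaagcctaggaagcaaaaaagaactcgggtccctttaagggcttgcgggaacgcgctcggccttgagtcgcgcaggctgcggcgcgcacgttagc
Smarca2 outer start: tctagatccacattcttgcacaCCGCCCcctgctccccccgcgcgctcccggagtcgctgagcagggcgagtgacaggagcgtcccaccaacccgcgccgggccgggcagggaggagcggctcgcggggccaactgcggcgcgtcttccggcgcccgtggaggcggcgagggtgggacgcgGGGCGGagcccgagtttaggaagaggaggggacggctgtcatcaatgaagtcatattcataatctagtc

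The windows were rich in GC and in GC boxes and held no match to the SOX sequences searched. SOX factors bind variants of the letters AACAAT and ACAAAG. Neither of these, nor their reverse complements ATTGTT and CTTTGT, occurred in any of the 10 windows, whereas 21.3% of the 20418 windows of protein-coding genes held at least 1 of them, as did 16.5% of the 6229 windows of genes with a covered start. This says only that these letters are not in these 250 bases, which are shorter than the peaks. The windows also hold only bases before a start. At Arid1a, Arid1b, Smarca4, Smarcc1, Smarcc2 and Smarcd2 the highest point of the start peak lay 78 to 625 bp past the covered start. Among the 10 windows, those of Smarca2 (outer start) and Smarcd2 (inner start) belong to starts that no listed peak covered. Whether a peak covered the outer Arid1a start was not tested. GGGCGG or CCGCCC, a search added after the sequences had been seen, was present in 9 of the 10 windows, all but that of Smarcc2. It was present in 65.8% of windows of genes with a covered start and in 44.1% of all windows. The inner Arid1a window held 7 matches, counted with overlaps. The ETS-type sequence CCGGAAG (or CTTCCGG), also added afterwards, was found in 2 of the 10 windows, those of Smarcc1 and Smarca2, in 16.6% of windows of genes with a covered start and in 9.27% of all windows.

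CpG dinucleotides, which mark CpG-island promoters, were frequent in the same windows. The 10 windows held a median of 26.5 CpGs (range 4 to 40) at a median GC content of 69.6%. The medians were 19 CpGs and 62.4% GC for genes with a covered start, and 6 CpGs and 52.8% GC for genes with no promoter peak. Smarcc2 had the most CpGs, 40. Arid1b had 37, in the window of a start that lay 777 bp inside the outermost annotated start of the gene. The window with 4 CpGs was the inner start of Smarcd2, which the Smarcd2 peak did not cover. CpG-rich windows went with covered starts across all genes, and their part in the peaks of the BAF genes was not tested.

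**Figure D1:**
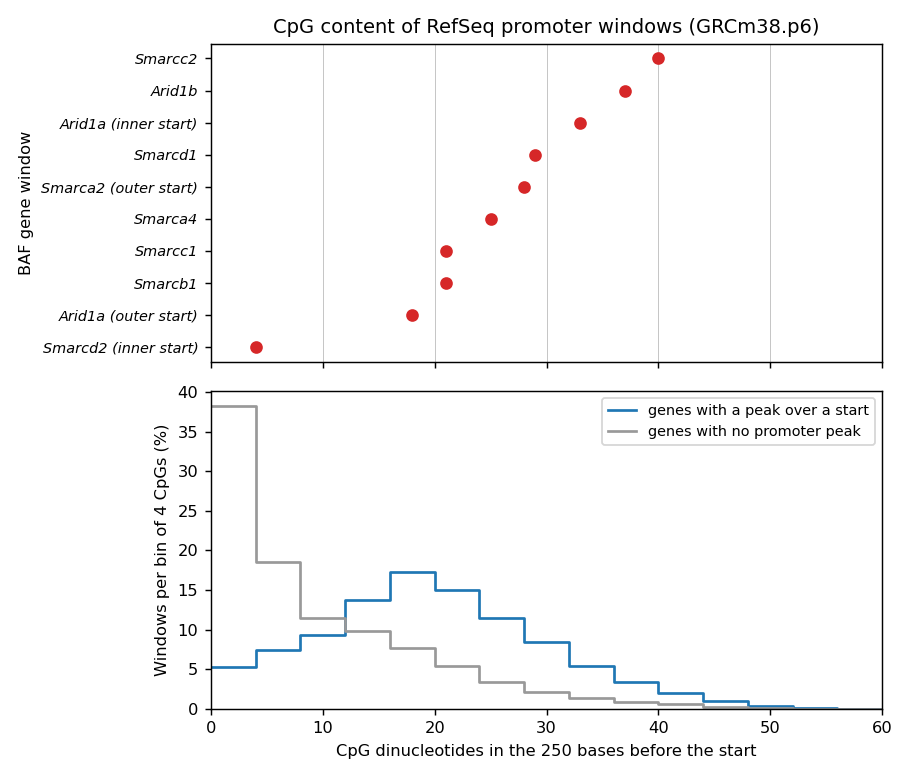
CpG dinucleotides in the 250 bases before the start: each point in the upper panel is 1 RefSeq window of a BAF gene, and the lines below give the percent of windows per bin of 4 CpGs for genes with a peak over a start (blue) and genes with no promoter peak (grey). The BAF windows run from 4 to 40 CpGs with a median of 26.5, and the 1 at 4 is the inner start of Smarcd2.

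The 3 ARID genes had the highest-scoring and widest start peaks of the set. Arid1a encodes a DNA-binding subunit of canonical BAF and is the most often mutated BAF gene in human cancers. The peak over its start (NM_001080819; chromosome 4, 133307562 to 133310943) held 478 tags (exact Poisson 95% interval 436 to 523) with fold 10.4 and score 1623.7. Arid1b encodes the protein that takes the place of ARID1A in other BAF complexes, and the peak over its start (NM_001085355; chromosome 17, 4993845 to 4996916) held 422 tags (383 to 464) with fold 14.9 and score 1551.9. Arid2 encodes the ARID subunit of PBAF, and its peak (NM_175251; chromosome 15, 96116651 to 96119531) held 379 tags (342 to 419) with fold 23.4 and score 1446.0. The counting intervals of Arid1a and Arid1b overlap, and those of Arid1b and Arid2 also do, while Arid2 had the highest fold of the 10 genes.

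Among the 6875 genes with a promoter peak, the 3 ARID genes ranked 45 (Arid1a), 53 (Arid1b) and 61 (Arid2) by score. They ranked 8, 13 and 20 by peak width, at 3381, 3071 and 2880 bp. The start peaks of the other 7 genes were 1043 to 1624 bp wide, and the median over all genes with a promoter peak was 982 bp. Tags were counted over the whole peak, so a wide peak gathers more of them. Per kb of peak the ARID genes had 141 (Arid1a), 137 (Arid1b) and 132 (Arid2) tags, all below the 208 of Smarcd1, whose peak was 1052 bp wide. Smarcd1 led the set by tag density, at rank 40 of 6875 genes.

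The ARID peaks were also the ones whose highest point lay farthest from the TSS. The position of a TSS in mm9 was worked out from the distances listed for the same transcript at other peaks, which was possible for 9 of the 10 genes. The summit lay 540 bp inside the gene at Arid1a, 625 bp inside at Arid1b and 712 bp upstream of the start at Arid2. At the 6 other genes that could be placed it was 0 to 413 bp away. Over 3014 genes with a covered start the median distance was 106 bp (quartiles 44 and 243 bp).

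Arid1a and Arid2 each had a further promoter peak upstream of the start peak. The upstream peak of Arid1a began 2584 bp before the start and ended 4375 bp before it, with 198 tags (171 to 228), fold 4.74 and score 405.8. A gap of 1166 bp separated it from the start peak. The distance between the outer and inner Arid1a starts in the RefSeq table, 2784 bp, falls within the span of the upstream peak, but the list names only 1 Arid1a transcript and positions were not carried between builds. Whether that peak covers the outer start was therefore not tested. The upstream peak of Arid2 ran from 1646 to 2945 bp before the start, only 344 bp from the start peak, with 95 tags (76.9 to 116), fold 3.89 and score 124.0. A second promoter peak was found at 9.61% of all genes with a promoter peak.

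**Figure D2:**
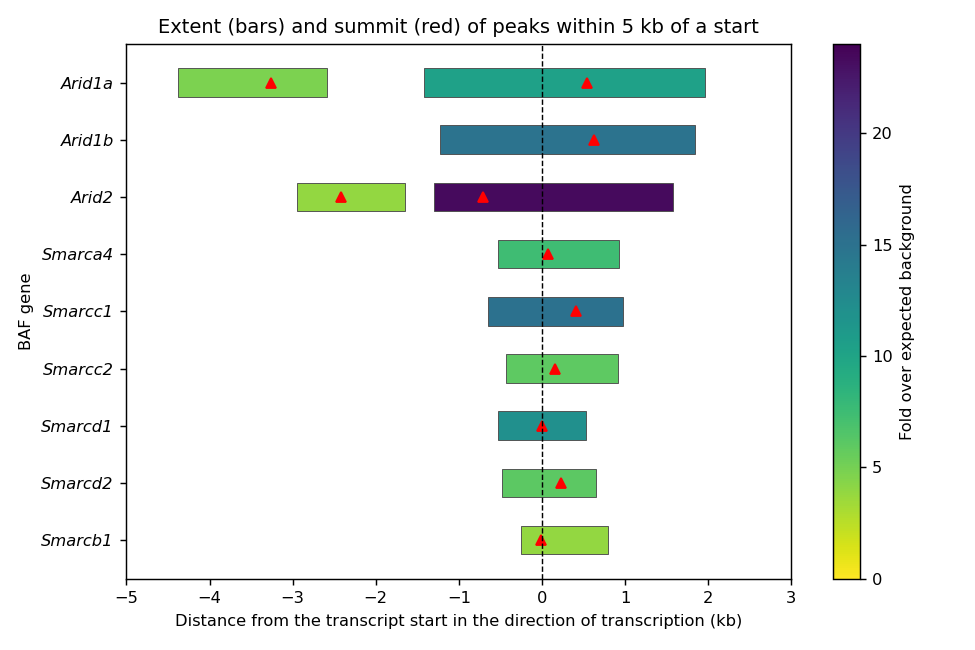
Peaks within 5 kb of the start at the 9 BAF genes whose start could be placed: bars show each peak's extent in kb from the TSS in the direction of transcription, red triangles its summit, and bar colour its fold. The ARID peaks reach from 1418 bp before the start to 1963 bp after it at Arid1a, and Arid1a and Arid2 alone of these 9 show a further upstream peak.

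Both ATPase genes were marked, at different kinds of start. Smarca4, encoding BRG1, had its peak over the start shared by all 3 listed transcripts (NM_001174078; chromosome 9, 21420087 to 21421540), with 218 tags (190 to 249), fold 7.48 and score 665.4. The summit lay 78 bp from the start. Smarca2, encoding BRM, had a single listed peak (chromosome 19, 26821697 to 26823124) with 157 tags (133 to 184), fold 9.01 and score 507.8. That peak covered the start of the short transcript NM_026003 and lay 142048 bp past the start of the long transcript NM_011416. No peak was listed at the long start: the next peak on its upstream side lay 1297 kb away, in an intron of Kank1. Smarca4 had more tags than Smarca2, with intervals that do not overlap, but Smarca2 had the higher fold.

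The core subunit genes ranged widely, from a fold of 3.92 at Smarcb1 to 15.0 at Smarcc1, and had lower scores and fewer tags than the ARID genes. Smarcc1, which encodes the scaffold protein BAF155, had 261 tags (230 to 295) with fold 15.0 and score 978.4 (NM_009211; chromosome 9, 110033877 to 110035501). Its paralog Smarcc2, encoding BAF170, had 139 tags (117 to 164) with fold 5.91 and score 226.2 (NM_001114096; chromosome 10, 127895856 to 127897208). The Smarcc1 peak thus exceeded the Smarcc2 peak in tags beyond counting error, and it was also the wider, at 1624 bp against 1352 bp.

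The SMARCD genes showed the same spread. Smarcd1 encodes BAF60A, a subunit that bridges the complex to transcription factors. Its peak had 219 tags (191 to 250), fold 12.1 and score 820.2, with the summit on the TSS itself (NM_031842; chromosome 15, 99532194 to 99533246). Smarcd2, encoding BAF60B, which is needed for granulocyte formation, had 109 tags (89.5 to 131), fold 6.08 and score 248.0 (chromosome 11, 106133640 to 106134767). The Smarcd2 peak covered the outer of 2 listed starts (NM_001130187), and the inner start (NM_031878), 5341 bp downstream, lay 4695 bp from the peak. The 2 tag intervals do not overlap, although the 2 peaks were close in width, at 1052 and 1127 bp.

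Smarcb1 had the weakest start peak of the set by score, fold and tags. It encodes SNF5 (BAF47), the core subunit lost in malignant rhabdoid tumours. Its start peak (NM_001161853; chromosome 10, 75383568 to 75384611) had 77 tags (60.8 to 96.2), fold 3.92 and score 115.1. These lie at or below the medians of all genes with a promoter peak, which were 78 tags, fold 4.51 and score 119.2. It ranked 3585 of 6875 by score and 4900 by fold, and its summit lay 14 bp from the TSS.

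**Figure D3:**
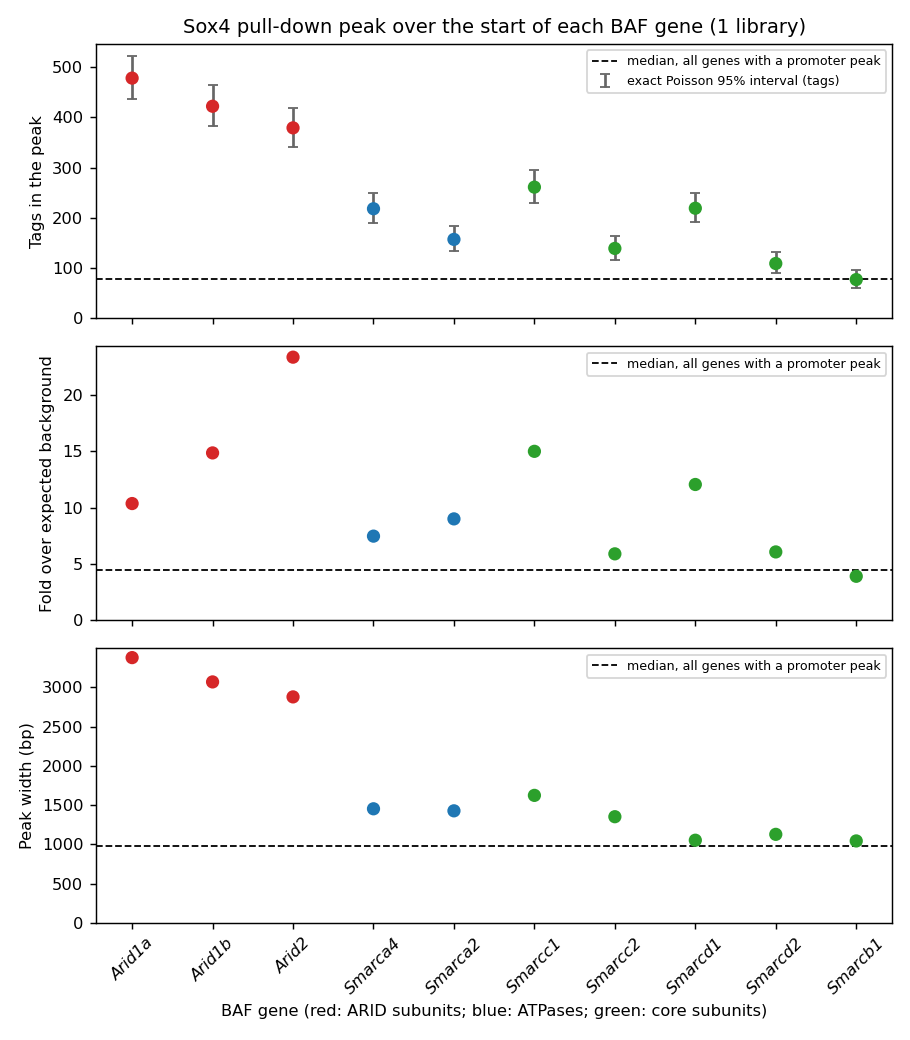
Tags with exact Poisson 95% intervals (top), fold (middle) and width in bp (bottom) of the peak over the start of each BAF gene in 1 library, with the median of all genes with a promoter peak as a dashed line. The 3 ARID genes (red) have 379 to 478 tags in peaks of 2880 to 3381 bp, and Smarcb1 alone has a fold below the dashed line.

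Taken over the set, 9 of 10 genes lay above the median score of genes with a promoter peak, 9 of 10 above the median fold, and 9 of 10 above the median number of tags per kb, with Smarcb1 below in each case. All 10 peaks were wider than the median. The median score was 742.8 for the BAF genes and 119.2 for all 6875 genes with a promoter peak. The median fold was 9.69 against 4.51, the median tag number 218.5 against 78, and the median width 1440 bp against 982 bp. The highest 10% of genes by promoter score took in 7 of the 10 BAF genes, the others being Smarcc2, Smarcd2 and Smarcb1, against 9.99% of all genes with a promoter peak. Of the 10 genes, 5 had a fold of at least 10 (Arid1a, Arid1b, Arid2, Smarcc1 and Smarcd1), against 4.51% of them. These are descriptions of 1 library, and genes of 1 complex are not replicates of one another.

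**Figure D4:**
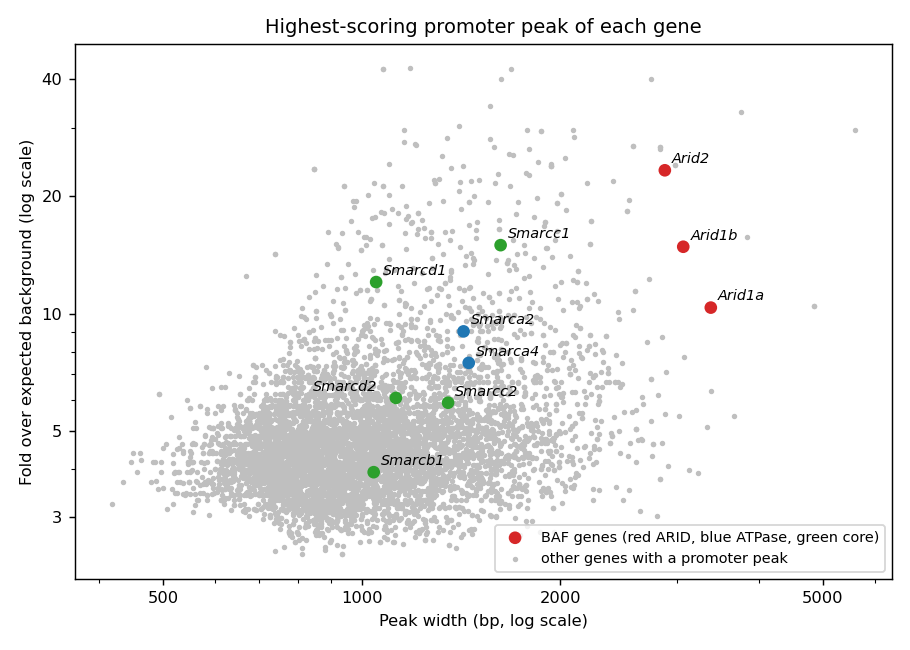
Width in bp (horizontal, log scale) and fold (vertical, log scale) of the highest-scoring promoter peak of each of 6875 genes, with the BAF genes named. The ARID genes (red) stand at the right, at 2880 to 3381 bp, Smarcd1 and Smarcc1 reach folds of 12.1 and 15.0 at smaller widths, and Smarcb1 lies among the bulk of genes.

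Away from the starts, Arid1a and Arid1b were the 2 genes of the set with peaks in the intron class. Arid1b had 4, all with no other gene listed. The nearest to its start was 96224 bp inside and had 94 tags (76.0 to 115), fold 10.4 and score 301.2. The others lay 194211, 200249 and 243360 bp inside, at folds of 4.88, 4.60 and 5.29. Arid1b is a long gene, of 353 kb, and 4 or more peaks inside the gene beyond 5 kb from the start were found in 1.26% of the 556 protein-coding genes of 300 kb or longer. Arid1a had 2 intronic peaks. The one 23097 bp inside had 135 tags (113 to 160), fold 10.9 and score 442.3, and the one 46022 bp inside had 59 tags (44.9 to 76.1), fold 4.79 and score 95.3. The fold of the nearer intronic peak was thus slightly above the 10.4 of the Arid1a start peak, from 135 tags against 478. Arid1a spans 77.8 kb, and 2 or more such internal peaks were found in 2.07% of the 2468 genes of 50 to 100 kb. Smarcc2 had 1 weak peak upstream, 19863 bp before its start, with 50 tags (37.1 to 65.9) at a fold of 3.26.

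The remaining subunits of the complex, from a list made with earlier results of these data known, were marked less completely. Promoter peaks were present at 10 of 10 genes described above and at 13 of these 21 (61.9%), against 32.8% of all protein-coding genes. The highest score was at Smarce1, which encodes the HMG-box subunit BAF57 (chromosome 11, 99090969 to 99092473), with 424 tags (385 to 466), fold 22.1 and score 1898.1, above that of every one of the 10 genes. Pbrm1, encoding the bromodomain protein BAF180 of PBAF, came next with fold 21.6 and score 1189.9, in an interval that took in the start of its closest gene, Gnl3, as well. Actb, encoding beta-actin, had fold 13.7 and score 736.6. Ss18l1, which encodes the CREST subunit, had fold 10.9 and score 528.0 in a peak that was closest to Psma7 and covered its start too. The other 9 were Actl6a, Dpf1, Brd7, Brd9, Ss18, Bcl7a, Bcl7b, Bcl7c and Bcl11a, with scores of 68.2 (Dpf1) to 485.7 (Actl6a). Of these, the Bcl7c peak was closest to Mir762 and covered its start, and the Brd9 peak also covered the start of Trip13.

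Among paralogs within the list, named with their values in view, some known from other tissues had a promoter peak and some did not. Dpf1 and Ss18l1, known from neuronal BAF, had one, at scores of 68.2 (Dpf1, 2260 bp before the start and not over it) and 528.0. Actl6b, the actin-like subunit of neuronal BAF, and Smarcd3, known from heart and muscle, had none, while Actl6a had a fold of 6.96. Bcl11b, a regulator of T-cell commitment, had no listed peak at all, whereas Bcl11a, needed for B-cell development, had 3 promoter peaks. The highest-scoring of these had a fold of 6.22. The broadly expressed Dpf2 had no promoter peak, and Phf10 and Bicra had no listed peak, as did Dpf3. Bicral was listed for 1 peak, 48008 bp from its start and closest to Rpl7l1. Absence from the list means that no peak passing the authors' threshold was listed for the gene, inside it or within 25 kb. A gene that the annotation of the list lacked would look the same.

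Other families of remodellers had promoter peaks at shares between those of the 2 BAF lists. They were found at 9 of 11 genes of the ISWI complexes (81.8%), 15 of 19 genes of INO80, SRCAP and EP400 (78.9%) and 13 of 20 genes of the CHD and NuRD complexes (65%). The median score of the promoter peaks was 742.8 for the 10 BAF genes and 443.4 for the remaining BAF subunits, against 401.9 for ISWI, 216.0 for CHD and NuRD, and 169.0 for INO80 and SRCAP. The highest in each family were Baz1b (score 1067.4, fold 19.3) and Cecr2 (683.5, 6.67) for ISWI, Chd2 (1632.4, 27.6) and Mbd3 (923.5, 15.5) for CHD and NuRD, and Ino80d (564.2, 10.2) and Yy1 (349.2, 5.52) for INO80. The Chd2 peak lay 3142 bp inside the gene, in an intron, and the Ino80d peak also covered the start of Gm11602. No test of a difference between these lists was made, since each is a set of genes in 1 library.

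**Figure D5:**
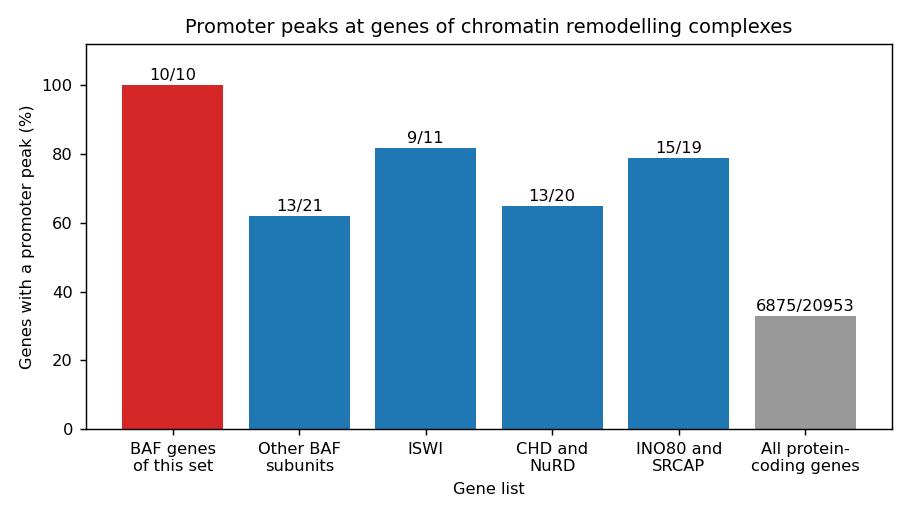
Percent of genes with a promoter peak in the BAF set (red), in the other remodeller lists (blue) and among all protein-coding genes (grey), with counts above the bars. The BAF set is at 10 of 10, the other lists lie at 61.9 to 81.8%, and all genes at 32.8%.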

How the data were processed

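One peak list, from the Sox4 bioChIP library, was analysed; the input library was not used here. MACS 1.4.2, Bowtie 0.12.8 and the mm9 build are named, without parameters, per the submitters' processing notes. Whether the input served as control is not stated in the sources used. The deposited tag number is a raw count of reads per peak. The deposited fold is a linear ratio to the expected background, and the deposited score was taken to be the p-value as minus 10 log10, since its lowest value lies just above 50. Distances run from the peak interval to RefSeq starts and ends.

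The 10 genes, the other lists and the rule for named genes (all 10, the 4 highest-scoring other subunits, the 2 highest per further family, and genes sharing a start peak) were chosen with earlier results of these data known. Other list genes that are named, for instance those lacking a peak, were picked with their values in view. Listed transcripts were matched to RefSeq genes (GRCm38.p6): 14992 of 15228 by accession, 192 by symbol, 32 by older symbol, and 12 were unmatched. Protein-coding genes of chromosomes 1 to 19 and X that have an NM accession, 20953 in all, formed the background. Genes enter with their highest-scoring promoter peak. Starts were placed in mm9 where 2 or more listed peaks agreed within 2 bp (6811 transcripts, and the strand matched for 5482 of 5491 that had one in the RefSeq promoter table). In a simulated list, every start that could be placed was placed correctly. Transcripts counted as marked there equalled those simulated as marked. That check used the same distance limit on both sides and did not run the matching of transcripts to genes. Poisson intervals (95%) are exact. No test was run. A marker gene and a neighbouring gene are not reported here. Python 3.11.15, numpy 2.4.6, pandas 2.3.3 and scipy 1.17.1 were used.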

Additional observations from a re-analysis of the deposited data

How the results depend on the processing

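The count of BAF genes with a promoter peak remained 10 of 10 with a TSS window of 1 kb or 20 kb, with peaks at or above the median score, and with closest genes only. It was also 10 with intervals that cover the TSS, a setting added after seeing the data. It was 9 with peaks of fold 5 or more, where Smarcb1 was lost. Shared starts stayed at 0 of 12 with a limit of 1 kb. The median score, 742.8, was 861.7 with the 20 kb window, which adds neighbouring peaks, and 820.2 at fold 5 or more. The median rank of the 10 genes was 197 by score, 343.5 by fold and 249 by tags per kb. The share of all protein-coding genes with a promoter peak, 32.8%, became 30.2% at 1 kb, 41.9% at 20 kb, 27.6% with closest genes only, 28.4% for covered starts, 11.9% at fold 5 or more, 18.9% for the higher scores and 34.6% without olfactory receptor genes. At fold 5 or more the counts were 7 for CHD and NuRD genes (13 with all peaks) and 7 for INO80 and SRCAP genes (15 with all peaks). With closest genes only, the counts were 11 for INO80 and SRCAP genes and 12 for CHD and NuRD genes. They were 10 for the other BAF subunits (13 with all peaks) and 8 for ISWI genes (9 with all peaks). No replicate could be left out. No paired analysis was possible because each group holds 1 library. The unknown depth limits what a missing peak can show.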

Other observations

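Of the 32 peaks listed for the BAF genes, 13 were closest to another gene, and Smarcb1 was the gene of the set with the higher fold at such a neighbour. The Smarcb1 start had 77 tags and a fold of 3.92, against 234 tags (205 to 266), fold 18.1 and score 903.2 in a peak 10277 bp before it. That peak covered the start of Mmp11, which encodes the matrix metalloproteinase stromelysin-3. The same peak lay within 5 kb of the start of Chchd10, which was also the closest gene of weaker peaks at folds of 2.74 and 5.83. On the other side of Smarcb1, past its end, the start of Derl3 had a fold of 3.53. Smarcc1 had a fold of 15.0 at its start, against 189 tags (163 to 218), fold 9.43 and score 661.9 at the start of the neighbouring RNA helicase gene Dhx30. The start of Pigv, past the end of Arid1a, had 236 tags (207 to 268) with fold 6.98 and score 486.6. At Smarca4 a neighbouring peak over the starts of Yipf2 and 1810026J23Rik had a fold of 5.86, against 7.48 at the Smarca4 start. The neighbours of Smarcd1 (Cox14, fold 4.52), Smarcc2 (Myl6b, fold 3.93) and Smarcd2 (Ftsj3 and Psmc5, a shared peak of fold 3.08) were each lower than the start peak of the BAF gene beside them.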
